A study of Mus musculus with 24 samples.

Results

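EBF1 and PAX5 are transcription factors that act in sequence as blood progenitors become B cells, and pro-B cells lacking the one or the other stop at an early stage. The comparison described here set pro-B cells lacking Ebf1 (Ebf1-KO) directly against pro-B cells lacking Pax5 (Pax5-KO), gene by gene, with wild type libraries alongside for orientation. It used 4 of the 24 samples of the series, 2 Ebf1-KO and 2 Pax5-KO RNA libraries, chosen by their labels alone, and every autosomal gene of the exon count table. Of 23376 autosomal genes in the table, 14078 had enough counts to be tested.

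All groups were fetal liver cells of C57BL6/J mice, labelled as ProB, and grown on OP9 stroma, a mouse bone marrow stromal line, with the cytokines KIT ligand, FLT3 ligand and IL-7. Every library used here, wild type included, carried the retroviral vector pMiG without a gene insert, so that vector infection was common to all. The Ebf1-KO and Pax5-KO cells differed by genotype and had no factor restored. They also differed in the sex-linked genes Xist and Ddx3y, given below, so sex and genotype cannot be told apart in any result of this comparison. The day of gestation, the exons deleted and whether the 2 libraries of a group came from separate fetuses are not given in the sources used here. The spread that p-values measure is that between libraries within the 7 groups fitted, and it may be technical. Besides the 2 knockouts and wild type, these were 4 groups of knockout cells given Ebf1 or Pax5. They took part in the low-count filter, the scaling and the estimate of the spread. An EBF1 binding peak list from the Abelson pre-B line 230-238 was used for description. The PLAC-seq samples of the series, an assay of chromatin contacts, were not used.

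As background, EBF1 opens and activates B cell genes, among them Pax5 itself and the genes of the pre-B cell receptor, and it acts with E proteins and FOXO1. PAX5 comes after EBF1, activates further B cell genes and holds down genes of other blood lineages. Cells without PAX5 are known to keep some lymphoid identity in culture with IL-7 while remaining able to form other lineages, and cells without EBF1 are known to stop before the pre-B receptor genes come on.

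The exon counts per library were 20522595 and 27100710 in Ebf1-KO, 22426946 and 31330849 in Pax5-KO and 21106276 and 16118136 in wild type. Levels are given as CPM, exon counts scaled to a common library size with TMM factors, and are not corrected for gene length, so that they compare libraries and not genes. The 10 genes with the most counts took 23.6% and 17.8% of the counts in Ebf1-KO, against 24.9% and 10.4% for Pax5-KO. The first library of each group carries one run tag and the second another, so the tag is balanced between the genotypes.

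Ebf1 and Pax5 were read first as a check of the labels. Ebf1 (NM_007897, chromosome 11, 44618100 to 45008096, mm10) had 244 and 282 CPM in Ebf1-KO, against 315 and 241 CPM in Pax5-KO and 966 and 1102 CPM in wild type. Both knockouts lay below wild type and overlapped each other, with a log2 fold change of Ebf1-KO over Pax5-KO of -0.08 ± 0.19 (SE, n = 2 each) and an adjusted p of 0.95 in edgeR's quasi-likelihood test with Benjamini-Hochberg adjustment. Exon counts cover the whole gene, so the reads that remain say nothing about the deletion. Pax5 (NM_008782, chromosome 4, 44531506 to 44710440) had 2.24 and 2.49 CPM in Ebf1-KO, against 20.1 and 12.3 CPM in Pax5-KO and 412 and 333 CPM in wild type. Pax5 was lower in Ebf1-KO than in the cells whose own Pax5 gene was deleted (log2 fold change -2.77 ± 0.30, adjusted p = 4.1e-05). The Pax5 model overlaps Mir5120, Gm12462 and 5730488B01Rik, and no strand setting is given for the counting.

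The labelled cell type was checked against Cd79a, a defining gene of the B lineage, which had 0.549 and 0.518 CPM in Ebf1-KO, 79.0 and 52.4 CPM in Pax5-KO and 611 and 427 CPM in wild type. Neither knockout thus carried this marker at a level near that of wild type. By contrast, Ptprc, which encodes the pan-leukocyte antigen CD45, had 578 and 565 CPM in Ebf1-KO, 501 and 458 CPM in Pax5-KO. In bulk RNA, fewer cells of a type and less RNA per cell cannot be told apart, and this holds for every gene below.

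The promoters of 4 genes lower in Ebf1-KO are shown. An EBF1 peak of the pre-B line overlapped each of them, and Igll1, Slc16a1 and Ccnd3 were the named lower genes that had both a peak and a match to the EBF1 motif core; other lower genes had a peak and no match. They are 300 bases long, from 250 bases before to 50 after the start site, from RefSeq on GRCm38.p6, which is the mm10 build, and are written 5′ to 3′ on the strand of the gene. Igll1, the surrogate light chain gene, lies on the minus strand (chr16:16863936-16864235). Slc16a1, a lactate transporter gene (chr3:104638414-104638713), Ccnd3, the cyclin D3 gene (chr17:47593217-47593516), and Cd79a, a B cell receptor subunit gene (chr7:24897247-24897546), lie on the plus strand. Capitals mark CCCNNGGG, the core of the EBF1 motif, searched on both strands, which for this palindrome are the same match. Cd79a holds no match and was added after its values were seen, as its peak was among the stronger ones.
Igll1: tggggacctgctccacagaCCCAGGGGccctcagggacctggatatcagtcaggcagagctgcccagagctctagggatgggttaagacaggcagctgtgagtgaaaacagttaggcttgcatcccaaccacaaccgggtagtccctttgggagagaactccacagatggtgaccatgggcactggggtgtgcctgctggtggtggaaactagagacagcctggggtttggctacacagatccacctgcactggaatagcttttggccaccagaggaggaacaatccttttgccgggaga
Slc16a1: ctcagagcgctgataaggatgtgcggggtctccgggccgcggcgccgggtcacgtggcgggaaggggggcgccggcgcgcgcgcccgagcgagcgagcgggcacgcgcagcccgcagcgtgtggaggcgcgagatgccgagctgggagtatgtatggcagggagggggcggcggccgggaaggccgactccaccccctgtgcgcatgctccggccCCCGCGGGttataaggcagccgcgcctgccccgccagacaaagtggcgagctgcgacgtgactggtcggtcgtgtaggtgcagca
Ccnd3: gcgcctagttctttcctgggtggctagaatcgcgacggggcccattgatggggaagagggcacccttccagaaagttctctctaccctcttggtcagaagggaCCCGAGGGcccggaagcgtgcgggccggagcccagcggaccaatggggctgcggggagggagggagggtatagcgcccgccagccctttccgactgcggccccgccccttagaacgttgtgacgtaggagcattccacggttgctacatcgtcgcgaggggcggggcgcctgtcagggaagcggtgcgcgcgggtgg
Cd79a: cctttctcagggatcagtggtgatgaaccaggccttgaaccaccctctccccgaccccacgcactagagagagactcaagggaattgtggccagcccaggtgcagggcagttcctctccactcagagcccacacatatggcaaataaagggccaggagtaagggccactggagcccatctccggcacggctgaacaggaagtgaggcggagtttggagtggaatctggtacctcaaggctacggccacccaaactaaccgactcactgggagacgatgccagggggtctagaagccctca
The match begins 231 bases before the start site in Igll1, 35 before in Slc16a1 and 147 before in Ccnd3. In Igll1 the match lay inside the peak. In Slc16a1 and Ccnd3 the peak overlapped the window but not the match, which lay upstream of the peak. A match is a description of these letters and not a measured site.

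Across the genome, cells without EBF1 were more often lower than higher relative to cells without PAX5. At an adjusted p under 0.05, 574 of 14078 autosomal genes differed (4.08%), of which 161 were higher in Ebf1-KO (1.14%) and 413 lower (2.93%). At an unadjusted p under 0.05 in the same test, 1808 genes differed (12.8%). The counts given below for each gene list are to be read against these shares, and some lie near them. Some genes, such as Irf8, Erg and Il2rb, stand in more than 1 list and are counted in each. The median log2 fold change was 2.52 among the higher and -2.10 among the lower genes, against 0.01 over all tested genes, and the smallest log2 fold change of a called gene was 0.70 in size. Of the higher genes, 98 passed a log2 difference of 2, and of the lower genes 215. All 574 differed in the same direction within both run tags, and in none of them did the 2 groups overlap. As they were called on these same libraries, this is no separate support. With 2 libraries a group, many genes not called separated too, such as Runx1, Ikzf1, Flt3 and Emb. The share that separated over all tested genes was not counted. Fewer genes were called in each direction when 1 of the 4 libraries was left out. Such a fit leaves 1 library in a group, so a lost call cannot be laid to the library left out.

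**Figure D1:**
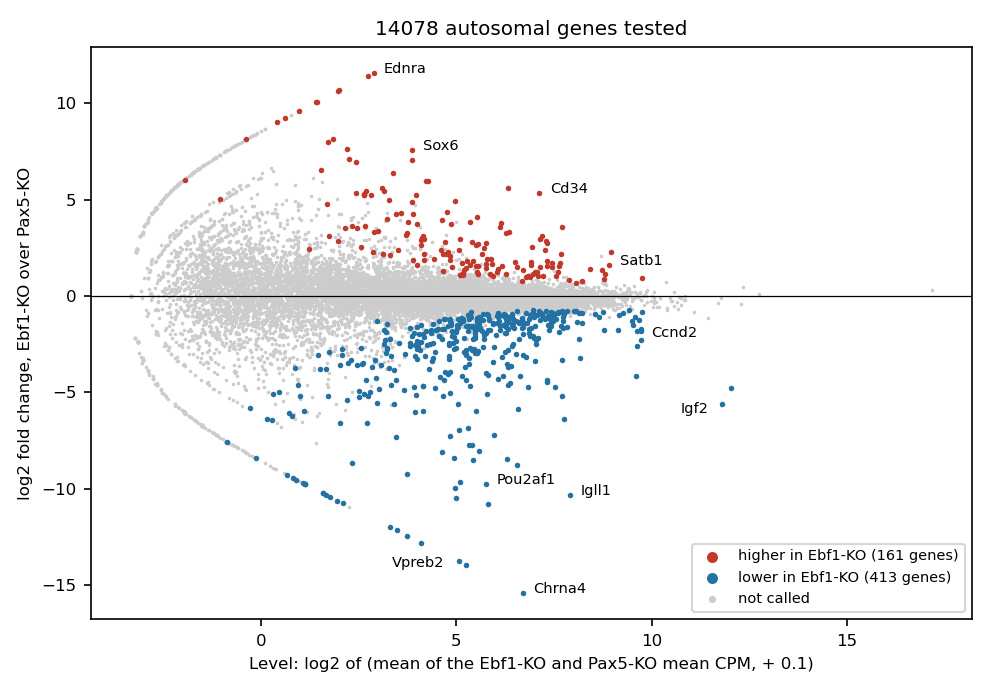
Each point is 1 of 14078 autosomal genes, with its mean level over both knockouts (log2 of CPM plus a small offset) on the horizontal axis and its log2 fold change of Ebf1-KO over Pax5-KO on the vertical axis. Coloured points are the 161 genes higher and the 413 genes lower in Ebf1-KO at an adjusted p under 0.05, and the lower ones reach further from 0.

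Set against wild type, the lower genes were mostly ones that wild type pro-B cells expressed more than Ebf1-KO cells did. The wild type mean lay above both knockouts for 140 of the 413 lower genes, between them for 191 and below both for 82. Of the 161 higher genes, the wild type mean lay below both knockouts for 96, between them for 46 and above both for 19. Many lower genes were near silence in Ebf1-KO, with 84 at a mean below 1 CPM and 22 with no count at all. Among the higher genes, 42 had a Pax5-KO mean below 1 CPM and 11 had no count there.

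The genes of the pre-B receptor itself were near silent in Ebf1-KO and expressed in Pax5-KO. This receptor pairs an immunoglobulin heavy chain with a surrogate light chain, encoded by Igll1 and the Vpreb genes, and signals through CD79A and CD79B. Of 14 listed genes of the receptor and its signalling, 7 were lower in Ebf1-KO and 1 higher, with a median log2 fold change of -3.05. The listed genes summed to 908 and 1138 CPM in Ebf1-KO, 2169 and 2637 CPM in Pax5-KO and 5439 and 4698 CPM in wild type.

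Igll1 (NM_001190325, chromosome 16, 16860671 to 16863985), whose promoter is shown above, had 0.320 and 0.414 CPM in Ebf1-KO, against 419 and 536 CPM in Pax5-KO and 1047 and 822 CPM in wild type. Its log2 fold change was -10.31 ± 0.82 (adjusted p = 1.4e-06). The Pax5-KO libraries thus lay below wild type and the Ebf1-KO libraries near 0. Vpreb2, a surrogate light chain gene (NM_016983, chromosome 16, 17980565 to 17981080), had no count in either Ebf1-KO library, against 63.8 and 68.9 CPM in Pax5-KO and 75.0 and 63.7 CPM in wild type. With a floor of 3 counts over the Ebf1-KO group, it was at least 1124-fold lower in Ebf1-KO (adjusted p = 2.3e-07). Vpreb1, a near copy of Vpreb2 with which it may share reads, had 0.412 and 0.345 CPM in Ebf1-KO and 53.5 and 107 CPM in Pax5-KO (log2 fold change -7.72 ± 0.63, adjusted p = 1.9e-06). Vpreb3, whose protein associates with chains of the receptor, had no count in Ebf1-KO and 3.03 and 4.97 CPM in Pax5-KO, with 369 and 326 CPM in wild type, and was at least 67.8-fold lower in Ebf1-KO (adjusted p = 0.00098). Unlike Igll1 and Vpreb2, it stood far below wild type in both knockouts.

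Cd79a (NM_007655, chromosome 7, 24897511 to 24902197) had 0.549 and 0.518 CPM in Ebf1-KO, 79.0 and 52.4 CPM in Pax5-KO and 611 and 427 CPM in wild type. Its log2 fold change of Ebf1-KO over Pax5-KO was -6.94 ± 0.35 (adjusted p = 1.6e-08). Cd79b had 3.11 and 3.94 CPM in Ebf1-KO, 63.5 and 80.5 CPM in Pax5-KO and 571 and 456 CPM in wild type (log2 fold change -4.35 ± 0.25, adjusted p = 4.8e-08). Both signalling subunits therefore formed 3 separate levels, lowest in Ebf1-KO and highest in wild type, with no overlap. Blnk, the adaptor that links the receptor to calcium signalling, went the other way, with 2.79 and 10.8 CPM in Ebf1-KO, 0.332 and 1.40 CPM in Pax5-KO and 329.5 and 221 CPM in wild type. Its log2 fold change was 2.88 ± 0.58 (adjusted p = 0.0080), at a level far below wild type, and the adjusted p was 0.21 without Ebf1-KO replicate 2 and 0.079 without Pax5-KO replicate 1. The kinase genes Lyn (adjusted p = 0.18), Syk (0.99) and Blk (0.077) did not pass, and Syk had 172 and 223 CPM in Ebf1-KO and 210.2 and 194 CPM in Pax5-KO. Vpreb1, Vpreb3 and Blnk were added to the described genes after their values were seen.

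Of 18 surface antigens of B cells, 4 were lower in Ebf1-KO and none higher, and the median log2 fold change was 0.05. With an unadjusted p under 0.05, 2 were higher, and DESeq2 called none of them higher. Cd24a, the heat-stable antigen that appears early in the B lineage, had 54.9 and 58.0 CPM in Ebf1-KO, 506 and 537 CPM in Pax5-KO and 2489 and 2261 CPM in wild type (log2 fold change -3.21 ± 0.21, adjusted p = 1.5e-07). Tnfrsf13c, the receptor for the survival factor BAFF, had 10.7 and 18.7 CPM in Ebf1-KO, against 254 and 349 CPM in Pax5-KO and 256 and 235 CPM in wild type (log2 fold change -4.35 ± 0.29, adjusted p = 2.1e-07). The Pax5-KO libraries thus held Tnfrsf13c at about the wild type level and Cd24a well below it. Bst1, the pro-B antigen BP-3, had 0.778 and 1.35 CPM in Ebf1-KO, 23.1 and 34.8 CPM in Pax5-KO and 265 and 212 CPM in wild type (log2 fold change -4.74 ± 0.38, adjusted p = 1.8e-06). The 4 lower antigens were called in every fit that left out 1 library. Cd22 (18.6 and 15.9 CPM in Ebf1-KO, 8.68 and 8.07 CPM in Pax5-KO) and Cd72 (29.2 and 31.3 CPM in Ebf1-KO, 19.0 and 18.5 CPM in Pax5-KO) did not pass.

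**Figure D2:**
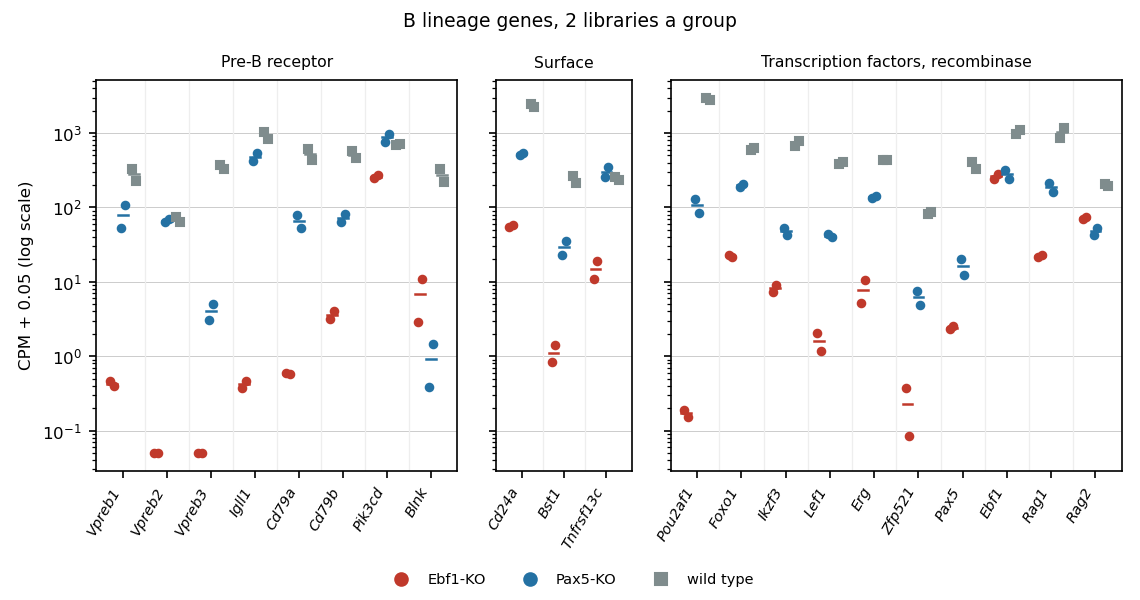
Levels of B cell genes (CPM plus 0.05, log axis) in each library, with the Ebf1-KO libraries left of the Pax5-KO and wild type libraries, 1 point per library and a bar at the mean of 2. Vpreb2 is at 0 in Ebf1-KO and at about the wild type level in Pax5-KO, while Cd79a lies at 3 separate levels.

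Among 22 transcription factors of the B lineage, 7 were lower in Ebf1-KO and 1 higher (Irf8, described below). Pou2af1, which encodes the octamer coactivator OBF-1 (NM_011136, chromosome 9, 51213690 to 51240079), had 0.137 and 0.104 CPM in Ebf1-KO, 131 and 83.2 CPM in Pax5-KO and 2979.9 and 2803 CPM in wild type (log2 fold change -9.77 ± 0.44, adjusted p = 5.9e-09). Foxo1, which acts with EBF1 and activates the recombinase genes (NM_019739, chromosome 3, 52268337 to 52350109), had 23.0 and 21.3 CPM in Ebf1-KO, 189.6 and 204 CPM in Pax5-KO and 588 and 638 CPM in wild type (log2 fold change -3.15 ± 0.18, adjusted p = 4.8e-08). These genes were graded, lowest in Ebf1-KO and highest in wild type. Erg, an ETS family factor, had 5.17 and 10.4 CPM in Ebf1-KO and 135 and 143 CPM in Pax5-KO (log2 fold change -4.14 ± 0.31, adjusted p = 7.5e-07). Lef1, a partner of WNT signalling in pro-B cells, had 1.97 and 1.10 CPM in Ebf1-KO, 43.6 and 39.9 CPM in Pax5-KO and 382 and 404 CPM in wild type (adjusted p = 7.5e-07). Ikzf3, which encodes Aiolos, had 7.23 and 8.98 CPM in Ebf1-KO and 52.2 and 42.5 CPM in Pax5-KO (log2 fold change -2.54 ± 0.39, adjusted p = 0.00097). Zfp521, a zinc finger gene, was also lower (adjusted p = 0.00032), with 0.320 and 0.0345 CPM in Ebf1-KO and 7.49 and 4.796 CPM in Pax5-KO. Ikzf3 and Zfp521 were described after their values were seen.

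Ikzf1, Runx1 and Tcf3, factors active in lymphoid progenitors, did not pass. Ikzf1, which encodes Ikaros, had 1430.2 and 1863 CPM in Ebf1-KO and 995 and 987 CPM in Pax5-KO (log2 fold change 0.73 ± 0.21, adjusted p = 0.076). Runx1 had 505 and 543 CPM in Ebf1-KO and 316 and 327 CPM in Pax5-KO (adjusted p = 0.081). Tcf3, which encodes the E2A proteins, had 113 and 172 CPM in Ebf1-KO and 127 and 179 CPM in Pax5-KO (adjusted p = 0.96), and the groups overlapped. The genes for the inhibitors of E proteins were not called in edgeR, with none of 3 tested higher or lower, none at an unadjusted p under 0.05 and none called by DESeq2.

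Of 14 genes of antigen receptor recombination, 2 were lower in Ebf1-KO and none higher in edgeR, with 2 higher at an unadjusted p under 0.05 and none by DESeq2. Rag1, a subunit of the recombinase that cuts receptor genes, had 21.6 and 23.2 CPM in Ebf1-KO, 213 and 162 CPM in Pax5-KO and 854 and 1184 CPM in wild type (log2 fold change -3.07 ± 0.23, adjusted p = 6.7e-07). Its partner Rag2 had 69.0 and 73.2 CPM in Ebf1-KO and 43.1 and 52.4 CPM in Pax5-KO, and did not pass (log2 fold change 0.57 ± 0.21, adjusted p = 0.19). The neighbouring genes Rag1 and Rag2 thus lay on opposite sides of 0, of which only the value for Rag1 passed the test. Xrcc6, which encodes the end-joining protein Ku70, had 92.0 and 87.8 CPM in Ebf1-KO and 195 and 161 CPM in Pax5-KO (adjusted p = 0.015), and its adjusted p was 0.12 without Ebf1-KO replicate 1, 0.11 without Ebf1-KO replicate 2 and 0.13 without Pax5-KO replicate 1.

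Stem and progenitor genes moved in both directions. Of 19 tested, 4 were higher in Ebf1-KO (Cd34, Hoxa9, Hoxa10 and Mycn) and 2 lower (Erg and Cd93), with a median log2 fold change of 0.19, and these 6 genes were called in every fit that left out 1 library. Cd34, the surface marker of blood progenitors (NM_001111059, chromosome 1, 194938821 to 194961292), had 249 and 296 CPM in Ebf1-KO, 3.37 and 9.91 CPM in Pax5-KO and no count in wild type (log2 fold change 5.34 ± 0.56, adjusted p = 4.4e-05). Gm16897 overlaps it, and without a strand setting their reads cannot be told apart. Hoxa9, a homeobox gene of early progenitors (NM_010456, chromosome 6, 52223097 to 52227370), had 314 and 206 CPM in Ebf1-KO, 29.1 and 32.0 CPM in Pax5-KO and 0.881 and 0.114 CPM in wild type (log2 fold change 3.09 ± 0.41, adjusted p = 0.00026). Its neighbours Hoxa10 (77.8 and 73.2 CPM in Ebf1-KO, 3.03 and 7.34 CPM in Pax5-KO, adjusted p = 0.0007) and Hoxa5 (162 and 93.1 CPM in Ebf1-KO, 10.6 and 10.9 CPM in Pax5-KO, adjusted p = 0.00012) were also higher and were described after their values were seen. Hoxa7, between them, had 56.1 and 59.6 CPM in Ebf1-KO and 18.3 and 7.63 CPM in Pax5-KO and did not pass (adjusted p = 0.081). In each of these Hoxa genes both Ebf1-KO libraries lay above both Pax5-KO libraries.

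Cd93, an antigen of early B and progenitor cells, was lower, with 358 and 425 CPM in Ebf1-KO, 1257 and 1327 CPM in Pax5-KO and 1036 and 1069.9 CPM in wild type (log2 fold change -1.72 ± 0.23, adjusted p = 0.00026). The receptors of the 2 growth factors of the culture did not pass. Kit had 106 and 127 CPM in Ebf1-KO and 76.0 and 68.9 CPM in Pax5-KO (adjusted p = 0.20), and Flt3 had 356 and 399 CPM in Ebf1-KO and 237 and 240.0 CPM in Pax5-KO (adjusted p = 0.088), against 2.38 and 3.43 CPM in wild type. Both knockouts therefore kept Flt3 far above wild type. Among 8 genes of the fetal program, only Igf2bp2 was called, with 8.88 and 8.77 CPM in Ebf1-KO and 36.8 and 38.8 CPM in Pax5-KO (adjusted p = 0.0031), which became 0.066 without Ebf1-KO replicate 1 and 0.056 without Ebf1-KO replicate 2. Lin28b, which sets fetal identity, had 70.0 and 72.0 CPM in Ebf1-KO and 106 and 98.3 CPM in Pax5-KO and did not pass (adjusted p = 0.19).

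The genes that carried the most counts among those lower in Ebf1-KO were H19 and Igf2, neighbouring imprinted genes on chromosome 7, described here after their values were seen. H19, a noncoding RNA of fetal tissue (NR_130973, 142575530 to 142578146), had 266 and 324 CPM in Ebf1-KO, 7117 and 8931 CPM in Pax5-KO and 465 and 466 CPM in wild type (log2 fold change -4.77 ± 0.30, adjusted p = 1.1e-07). Igf2, which encodes a fetal growth factor (NM_010514, 142650768 to 142658804), had 112 and 173 CPM in Ebf1-KO, 6032 and 7906 CPM in Pax5-KO and 54.7 and 63.3 CPM in wild type (log2 fold change -5.61 ± 0.35, adjusted p = 1.1e-07). The Pax5-KO libraries were the ones that stood apart here, with Ebf1-KO nearer to wild type, and they were also the ones that stood apart in the sex-linked genes Xist and Ddx3y. Igf2r, the receptor that clears IGF2, had 248 and 266 CPM in Ebf1-KO, 107 and 72.7 CPM in Pax5-KO and 139 and 115 CPM in wild type and was higher in Ebf1-KO (log2 fold change 1.52 ± 0.22, adjusted p = 0.00048). H19, Igf2 and Igf2r were called in every fit that left out 1 library.

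Further lower genes with many counts, also described after their values were seen, were Cecr2 and Jchain. Cecr2, which encodes a bromodomain protein of chromatin remodelling, had 79.5 and 83.2 CPM in Ebf1-KO, 1531 and 1405 CPM in Pax5-KO and 1669 and 1782 CPM in wild type (log2 fold change -4.17 ± 0.19, adjusted p = 5.9e-09). Jchain, the joining chain of secreted antibodies, had 223 and 216 CPM in Ebf1-KO, 1203 and 1488 CPM in Pax5-KO and 7.67 and 11.2 CPM in wild type (adjusted p = 2.9e-05). Cecr2 was thus slightly below the wild type level in Pax5-KO, and Jchain was above wild type in both knockouts. Il2ra, the alpha chain of the IL-2 receptor (CD25), had 9.47 and 11.8 CPM in Ebf1-KO, 178 and 199 CPM in Pax5-KO and 187 and 123 CPM in wild type (log2 fold change -4.15 ± 0.28, adjusted p = 2.6e-07). Ly6d, a surface marker of B-biased lymphoid progenitors, had 10.8 and 16.3 CPM in Ebf1-KO, 299 and 409 CPM in Pax5-KO and 125 and 83.4 CPM in wild type (log2 fold change -4.71 ± 0.42, adjusted p = 4.4e-06). Prkcb, which encodes a protein kinase C of B cell receptor signalling, had 38.8 and 37.6 CPM in Ebf1-KO, 386 and 371 CPM in Pax5-KO and 1069.5 and 1094 CPM in wild type (adjusted p = 4.8e-08).

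The dendritic and myeloid genes that were called were higher in Ebf1-KO, but the lists as a whole differed. The median log2 fold change was 0.42 for the dendritic list. It was -0.22 for the myeloid list, with 10 tested genes above 0 and 14 below. Of 12 dendritic genes 2 were higher (Irf8 and Runx2), and of 24 myeloid genes 3 were higher (Adgre1, Tyrobp and Itgam), with none lower in either list. Irf8 is also the 1 higher gene of the B lineage transcription factors, so it is not a separate result here. No dendritic gene was lower at an unadjusted p under 0.05 or by DESeq2, while 3 myeloid genes were lower at that p and 1 by DESeq2. The listed dendritic genes summed to 1911 and 2329 CPM in Ebf1-KO, 1179 and 1439.5 CPM in Pax5-KO and 467 and 432 CPM in wild type. The myeloid list summed to 878 and 878 CPM in Ebf1-KO, 633 and 816 CPM in Pax5-KO and 73.3 and 75.8 CPM in wild type. Tyrobp alone gave 323 and 223 CPM of these sums in Ebf1-KO and 32.4 and 44.2 CPM in Pax5-KO. The order of the sums therefore does not speak for the list as a whole. The part of any admixture of such cells in the other results was not tested.

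Irf8, a factor for dendritic and B cell fates (NM_001301811, chromosome 8, 120738639 to 120756692), had 70.1 and 116 CPM in Ebf1-KO, 16.2 and 11.8 CPM in Pax5-KO and 89.3 and 69.3 CPM in wild type (log2 fold change 2.74 ± 0.29, adjusted p = 3.7e-05). Ebf1-KO thus overlapped wild type and Pax5-KO lay below both. Runx2, a factor of plasmacytoid dendritic cells, had 519 and 683 CPM in Ebf1-KO, 238 and 242 CPM in Pax5-KO and 2.12 and 2.12 CPM in wild type (log2 fold change 1.32 ± 0.19, adjusted p = 0.00048). Siglech, a surface marker of those cells, had 30.1 and 30.7 CPM in Ebf1-KO and 8.39 and 4.56 CPM in Pax5-KO and did not pass (adjusted p = 0.46). Zeb2, a repressor active in dendritic and early B cells, was higher too (281 and 249.97 CPM in Ebf1-KO, 88.3 and 73.7 CPM in Pax5-KO, adjusted p = 4.3e-05) and was described after its values were seen.

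Adgre1, the macrophage antigen F4/80, had 45.7 and 57.5 CPM in Ebf1-KO, 2.37 and 2.66 CPM in Pax5-KO and at most 0.0572 CPM in wild type (log2 fold change 4.35 ± 0.77, adjusted p = 0.0029, and 0.054 without Pax5-KO replicate 2). Tyrobp, the signalling adaptor DAP12, had 323 and 223 CPM in Ebf1-KO and 32.4 and 44.2 CPM in Pax5-KO (log2 fold change 2.83 ± 0.52, adjusted p = 0.0037, and 0.059 without Pax5-KO replicate 1). Itgam, the integrin CD11b, had 76.6 and 108 CPM in Ebf1-KO and 30.4 and 26.9 CPM in Pax5-KO (adjusted p = 0.012). Its adjusted p was 0.14 without Ebf1-KO replicate 2, 0.072 without Pax5-KO replicate 1 and 0.15 without Pax5-KO replicate 2. Among the granule genes of neutrophils and monocytes, Mpo and Lyz2 did not pass. Mpo had 56.7 and 81.5 CPM in Ebf1-KO and 119 and 106 CPM in Pax5-KO (adjusted p = 0.79), and Lyz2 had 81.3 and 66.8 CPM in Ebf1-KO and 162 and 159 CPM in Pax5-KO (adjusted p = 0.15).

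**Figure D3:**
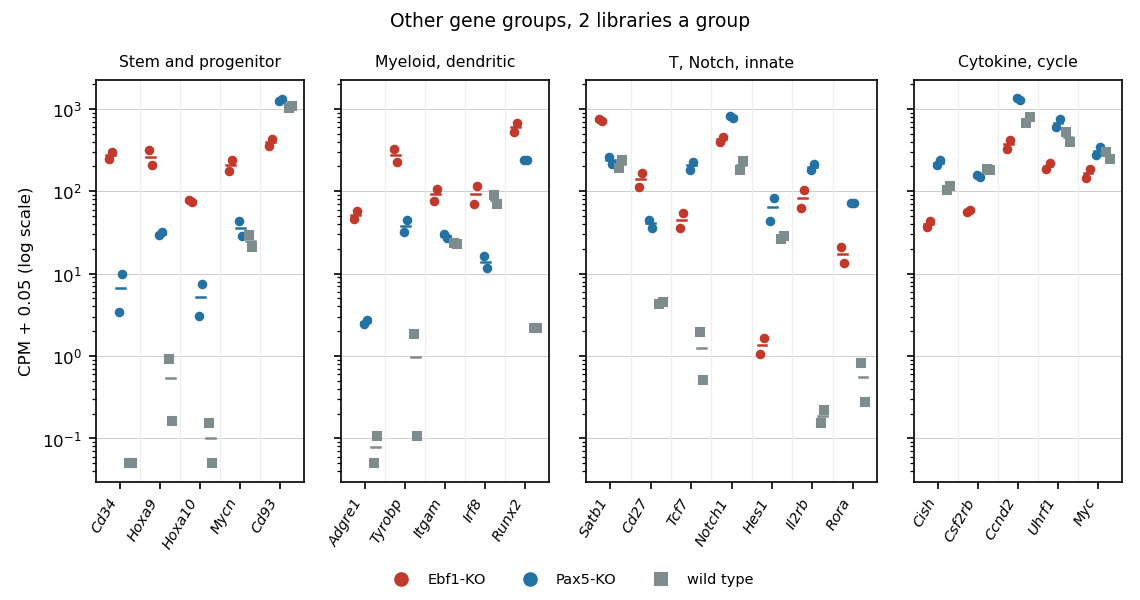
Levels of progenitor, myeloid, dendritic, T lineage and Notch pathway genes, with cytokine signalling and cell cycle genes (CPM plus 0.05, log axis), in each library, with the Ebf1-KO libraries left of the Pax5-KO and wild type libraries, 1 point per library and a bar at the mean of 2. Cd34 and Hoxa9 are higher in Ebf1-KO, and Hes1 and Tcf7 are lower.

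Genes of the T lineage and of Notch signalling split between the groups. Of 11 transcription factors of T cells, 1 was higher in Ebf1-KO (Satb1) and 2 lower (Tcf7 and Runx3). Satb1, a chromatin organiser of lymphoid cells, had 747 and 705 CPM in Ebf1-KO, 262 and 215 CPM in Pax5-KO and 191 and 238 CPM in wild type (log2 fold change 1.61 ± 0.19, adjusted p = 8.1e-05). Tcf7, which encodes TCF-1, an early factor of the T lineage, had 35.5 and 54.7 CPM in Ebf1-KO, 184 and 228 CPM in Pax5-KO and 1.92 and 0.458 CPM in wild type (log2 fold change -2.19 ± 0.38, adjusted p = 0.0025, and 0.055 without Ebf1-KO replicate 1). Runx3 had 179 and 215 CPM in Ebf1-KO and 332 and 345 CPM in Pax5-KO (adjusted p = 0.039) and was called in none of the fits without 1 library, with adjusted p values of 0.085 to 0.46. Both knockouts thus expressed Tcf7, Pax5-KO more.

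Of 20 genes of the Notch pathway, 3 were lower in Ebf1-KO and 1 higher. Hes1, a repressor that Notch switches on (NM_008235, chromosome 16, 30065357 to 30067796), had 1.01 and 1.62 CPM in Ebf1-KO, 43.9 and 83.7 CPM in Pax5-KO and 26.4 and 28.8 CPM in wild type (log2 fold change -5.58 ± 0.60, adjusted p = 3.9e-05). The receptor gene Notch1, which is also known to be repressed by PAX5, had 399 and 461 CPM in Ebf1-KO, 811 and 775 CPM in Pax5-KO and 182 and 234 CPM in wild type (log2 fold change -0.88 ± 0.19, adjusted p = 0.013). This became an adjusted p of 0.22 without Ebf1-KO replicate 1, 0.076 without Pax5-KO replicate 1 and 0.071 without Pax5-KO replicate 2, and 0610009E02Rik overlaps it. Maml2, which encodes a Notch coactivator, was lower (20.3 and 20.5 CPM in Ebf1-KO, 53.9 and 64.0 CPM in Pax5-KO, adjusted p = 0.0029, and 0.053 without Ebf1-KO replicate 1). Its relative Maml3 was higher (205 and 193 CPM in Ebf1-KO, 112 and 84.0 CPM in Pax5-KO, adjusted p = 0.0071), with adjusted p values of 0.078 without Ebf1-KO replicate 1, 0.055 without Ebf1-KO replicate 2 and 0.16 without Pax5-KO replicate 2. Nrarp, a Notch target that feeds back on the pathway, had 2.10 and 4.21 CPM in Ebf1-KO and 17.6 and 14.2 CPM in Pax5-KO and did not pass (adjusted p = 0.085).

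Of 20 genes of T cell receptor signalling, 3 were higher in Ebf1-KO (Cd27, Cd28 and Fyb) and none lower, while 3 had a lower value with an unadjusted p under 0.05 and DESeq2 called 1 lower. Cd28, a costimulatory receptor that PAX5 is known to repress, had 105 and 105 CPM in Ebf1-KO, 52.9 and 44.0 CPM in Pax5-KO and 1.04 and 1.09 CPM in wild type (log2 fold change 1.12, adjusted p = 0.020). Cd27, a costimulatory receptor of the TNF receptor family, had 113 and 168 CPM in Ebf1-KO and 45.2 and 36.1 CPM in Pax5-KO (adjusted p = 0.011). Fyb, an adaptor gene, had 77.6 and 97.2 CPM in Ebf1-KO, 25.2 and 20.9 CPM in Pax5-KO and no count in wild type (adjusted p = 0.034). None of these 3 calls held in every fit that left out 1 library, and Cd28 and Fyb lost theirs whichever of the 4 was left out. Cd27 lost its call without Ebf1-KO replicate 2, Pax5-KO replicate 1 or Pax5-KO replicate 2. The defining T cell gene Cd3e was at most 0.173 CPM in the knockout libraries and was not tested, and Lck had 93.8 and 104 CPM in Ebf1-KO and 70.5 and 64.0 CPM in Pax5-KO (adjusted p = 0.31).

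PAX5 is known to repress a set of genes of other lineages, and 12 of these were listed. In Ebf1-KO relative to Pax5-KO, 2 were higher (Cd28 and Cd44) and 1 lower (Notch1), and the median log2 fold change was 0.04. They summed to 1508 and 1777 CPM in Ebf1-KO, 1774 and 1894 CPM in Pax5-KO and 455 and 446 CPM in wild type, so that the sums of both knockouts lay well above wild type. Not every member did so, and Cd44 and Slamf9 lay below wild type in Pax5-KO. Cd44, a hyaluronan receptor of progenitors, had 153 and 216 CPM in Ebf1-KO, 59.5 and 49.5 CPM in Pax5-KO and 175 and 130.0 CPM in wild type (log2 fold change 1.76 ± 0.26, adjusted p = 0.00059). Emb had 193 and 228 CPM in Ebf1-KO, 329.8 and 366 CPM in Pax5-KO (adjusted p = 0.066), and Grap2 had 64.5 and 71.9 CPM in Ebf1-KO, 124 and 117 CPM in Pax5-KO (adjusted p = 0.10), and neither passed.

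Natural killer and innate lymphoid genes were lower in Ebf1-KO in 2 of 26 cases and higher in none, with 1 higher and 8 lower at an unadjusted p under 0.05 and none higher and 4 lower by DESeq2. Il2rb, the beta chain of the IL-2 and IL-15 receptors, had 62.4 and 104 CPM in Ebf1-KO, 181 and 213 CPM in Pax5-KO and 0.104 and 0.172 CPM in wild type (log2 fold change -1.25 ± 0.26, adjusted p = 0.010). The adjusted p became 0.22 without Ebf1-KO replicate 1 and 0.13 without Pax5-KO replicate 2. Rora, a nuclear receptor gene of innate lymphoid cells, had 21.0 and 13.6 CPM in Ebf1-KO and 72.3 and 72.1 CPM in Pax5-KO (adjusted p = 0.015), and no fit without 1 library called it (0.064 to 0.18). Eomes had 9.01 and 7.53 CPM in Ebf1-KO and 24.4 and 29.5 CPM in Pax5-KO and did not pass (adjusted p = 0.24). The listed genes summed to 455 and 470.4 CPM in Ebf1-KO, 731 and 746 CPM in Pax5-KO and 31.5 and 67.3 CPM in wild type. The part that any admixture of such cells has in the other results was not tested.

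Among 16 erythroid and megakaryocyte genes, only Car2, which encodes a carbonic anhydrase, was called, with 19.6 and 21.4 CPM in Ebf1-KO and 194 and 135 CPM in Pax5-KO (adjusted p = 0.00058). None of 6 mast cell and basophil genes was called in edgeR, at an unadjusted p under 0.05 or by DESeq2.

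Of 25 interferon response genes, 2 were higher in Ebf1-KO (Oas2 and Oas1a) and none lower, with 7 higher and 1 lower at an unadjusted p under 0.05. DESeq2 called 4 higher and none lower. Oas2, an antiviral RNA-sensing enzyme gene, had 341 and 174 CPM in Ebf1-KO, 59.0 and 40.5 CPM in Pax5-KO and 2.23 and 2.80 CPM in wild type (adjusted p = 0.0038, 0.053 without Ebf1-KO replicate 1 and 0.089 without Pax5-KO replicate 2). Oas1a had 25.0 and 21.4 CPM in Ebf1-KO and 7.16 and 5.76 CPM in Pax5-KO (adjusted p = 0.049, and 0.17 to 0.42 without any 1 library). The listed genes summed to 2491 and 2289 CPM in Ebf1-KO, 1759.6 and 1698 CPM in Pax5-KO and 233 and 258 CPM in wild type. None of 12 genes of MHC class II presentation was called in edgeR, with 2 higher and 1 lower at an unadjusted p under 0.05 and 1 lower by DESeq2.

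Genes of cytokine signalling were lower in Ebf1-KO where they differed, apart from Il4ra. Of 24 autosomal genes tested, 4 were lower (Cish, Csf2rb, Csf2rb2 and Il2rb) and 1 higher, with a median log2 fold change of -0.49. Cish, which STAT5 switches on and which damps its signal, had 36.7 and 43.6 CPM in Ebf1-KO, 207 and 237 CPM in Pax5-KO and 103 and 117 CPM in wild type (log2 fold change -2.47 ± 0.26, adjusted p = 2.8e-05). Csf2rb, the common beta chain of the IL-3, IL-5 and GM-CSF receptors, had 56.7 and 59.2 CPM in Ebf1-KO and 158 and 151 CPM in Pax5-KO (log2 fold change -1.41, adjusted p = 0.0005). Its near copy Csf2rb2, with which it may share reads, had 15.4 and 19.4 CPM in Ebf1-KO and 38.0 and 41.8 CPM in Pax5-KO (adjusted p = 0.046, and 0.13 to 0.48 without any 1 library). Il4ra had 78.7 and 86.4 CPM in Ebf1-KO and 26.5 and 25.9 CPM in Pax5-KO (adjusted p = 0.048), and no fit without 1 library called any gene of the list higher. Il7r, the receptor of the cytokine the cells grew in, had 209.9 and 221 CPM in Ebf1-KO, 311 and 337 CPM in Pax5-KO and did not pass (log2 fold change -0.59, adjusted p = 0.15).

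Of 18 homing and adhesion genes, 3 were higher in Ebf1-KO (Cd44, Itga6 and Itga4) and 1 lower (Cxcr5). Cxcr5, the chemokine receptor that guides B cells into follicles, had 11.5 and 13.6 CPM in Ebf1-KO, 139.8 and 147 CPM in Pax5-KO and 21.1 and 51.4 CPM in wild type (log2 fold change -3.51 ± 0.44, adjusted p = 0.00017), and Bcl9l overlaps it. Itga6 had 69.5 and 65.3 CPM in Ebf1-KO and 25.2 and 12.8 CPM in Pax5-KO (adjusted p = 0.0019). Itga4, a subunit of the integrin VLA-4 that binds stroma, had 988 and 1292 CPM in Ebf1-KO and 512 and 662 CPM in Pax5-KO (adjusted p = 0.032). It lost the call, with an adjusted p of 0.36 without Ebf1-KO replicate 2, 0.22 without Pax5-KO replicate 1 and 0.086 without Pax5-KO replicate 2, and Cerkl overlaps it.

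The PI3K pathway, which relays receptor and cytokine signals, had 3 of 22 genes lower in Ebf1-KO and none higher, with 1 higher at an unadjusted p under 0.05 and none by DESeq2. Pik3cd, the catalytic subunit of lymphocytes, had 245 and 272 CPM in Ebf1-KO, 766 and 979 CPM in Pax5-KO and 699 and 719 CPM in wild type (log2 fold change -1.75 ± 0.19, adjusted p = 3.8e-05). Pik3r5, a regulatory subunit, had 39.4 and 58.5 CPM in Ebf1-KO, 247 and 196 CPM in Pax5-KO and 97.3 and 87.5 CPM in wild type (log2 fold change -2.18 ± 0.25, adjusted p = 6.5e-05). Inpp5d, the phosphatase SHIP1 that opposes the pathway, was lower as well (119 and 151 CPM in Ebf1-KO, 255 and 244 CPM in Pax5-KO, adjusted p = 0.017). Its adjusted p was 0.29 without Ebf1-KO replicate 1, 0.093 without Pax5-KO replicate 1 and 0.089 without Pax5-KO replicate 2.

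The study as a whole concerns the control of Myc, a transcription factor that drives cell growth and division. Myc (NM_010849, chromosome 15, 61985341 to 61990361) had 143 and 187 CPM in Ebf1-KO, 277 and 344 CPM in Pax5-KO and 299 and 248 CPM in wild type. Both Ebf1-KO libraries lay below all others, and the difference just missed the threshold (log2 fold change -0.91 ± 0.25, adjusted p = 0.060). It passed under 6 of the alternatives, with adjusted p values of 0.0034 without the filter on low counts, 0.049 with a filter at 1 CPM, 0.030 with the 4 knockout libraries alone, 0.029 with the 6 empty-vector libraries, 0.0079 with the replicate block and 0.0099 in DESeq2. It was 0.085 to 0.53 with 1 library left out. Mycn, a relative of Myc, was higher in Ebf1-KO, with 176 and 238 CPM in Ebf1-KO, 43.2 and 28.7 CPM in Pax5-KO and 29.3 and 20.9 CPM in wild type (log2 fold change 2.53 ± 0.41, adjusted p = 0.0015). Mycn was the 1 called gene of 12 in the MYC and MAX network, and Max itself had 266 and 273 CPM in Ebf1-KO and 251 and 245 CPM in Pax5-KO (adjusted p = 0.92).

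Genes of the pathways that MYC is known to drive are set here beside the 4.08% called over all autosomal genes tested. None of 28 ribosome biogenesis genes was called in edgeR or DESeq2, with none higher and 2 lower at an unadjusted p under 0.05, and a median log2 fold change of -0.29 against 0.01 over all tested genes. Ncl, which encodes nucleolin, had 1085 and 1412 CPM in Ebf1-KO and 1583 and 2014 CPM in Pax5-KO (adjusted p = 0.51). Of 19 glycolysis genes, 2 were lower and 1 higher. Slc16a1, whose promoter is shown above, had 44.4 and 49.9 CPM in Ebf1-KO, 99.9 and 122 CPM in Pax5-KO and 157 and 144 CPM in wild type (log2 fold change -1.23 ± 0.28, adjusted p = 0.017). The call was lost at an adjusted p of 0.22 without Ebf1-KO replicate 1, 0.088 without Ebf1-KO replicate 2 and 0.18 without Pax5-KO replicate 2. Pfkfb3 (20.9 and 28.3 CPM in Ebf1-KO, 53.9 and 57.9 CPM in Pax5-KO, adjusted p = 0.028) and Pfkp (39.0 and 32.5 CPM in Ebf1-KO, 15.4 and 13.4 CPM in Pax5-KO, adjusted p = 0.039), which act at the phosphofructokinase step, lost their calls without any 1 of the 4 libraries, with adjusted p values of 0.055 to 0.33 for Pfkfb3 and 0.13 to 0.32 for Pfkp, and Pitrm1 overlaps Pfkp. Of 24 autosomal genes of nucleotide and one-carbon synthesis, only Impdh1, an enzyme of guanine nucleotide synthesis, was called, with 13.9 and 21.8 CPM in Ebf1-KO, 124 and 141 CPM in Pax5-KO and 73.4 and 70.2 CPM in wild type (log2 fold change -2.89 ± 0.29, adjusted p = 1.7e-05).

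Among 26 autosomal genes of DNA replication and the G1/S step, 3 were lower in Ebf1-KO and none higher by edgeR, by DESeq2 or at an unadjusted p under 0.05. Ccnd2, which encodes cyclin D2, had 329 and 416 CPM in Ebf1-KO, 1346 and 1296 CPM in Pax5-KO and 677 and 794 CPM in wild type (log2 fold change -1.83 ± 0.24, adjusted p = 0.00022). Uhrf1, which keeps DNA methylation through replication, had 185 and 221 CPM in Ebf1-KO, 605 and 756 CPM in Pax5-KO and 518 and 399 CPM in wild type (log2 fold change -1.75 ± 0.26, adjusted p = 0.00062). Both genes were lowest in Ebf1-KO with no overlap between the groups. Ccnd3, whose promoter is shown above, had 126 and 171 CPM in Ebf1-KO, 270.5 and 291 CPM in Pax5-KO and 547 and 579 CPM in wild type (log2 fold change -0.92 ± 0.23, adjusted p = 0.039). The adjusted p became 0.47 without Ebf1-KO replicate 1, 0.10 without Pax5-KO replicate 1 and 0.24 without Pax5-KO replicate 2, and Bysl overlaps it. None of 20 mitosis genes was called by edgeR or DESeq2 or had an unadjusted p under 0.05. Mki67, the proliferation marker, had 1235 and 1424 CPM in Ebf1-KO, 1761 and 1469.7 CPM in Pax5-KO and 4432 and 4022 CPM in wild type (log2 fold change -0.28 ± 0.19, adjusted p = 0.65).

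Of 18 tested brakes of the cell cycle, 2 were lower in Ebf1-KO and 1 higher, and none of the 3 was called in every fit that left out 1 library. Trp53inp1, a p53 target, had 115 and 128 CPM in Ebf1-KO and 218 and 265 CPM in Pax5-KO (adjusted p = 0.0051, 0.11 without Ebf1-KO replicate 1 and 0.089 without Pax5-KO replicate 2). Btg2, an antiproliferative gene, had 49.6 and 50.9 CPM in Ebf1-KO and 92.5 and 113 CPM in Pax5-KO (adjusted p = 0.012). Its adjusted p was 0.14 without Ebf1-KO replicate 1, 0.078 without Ebf1-KO replicate 2 and 0.13 without Pax5-KO replicate 2. Cdkn1c, the inhibitor p57, had 1.05 and 3.90 CPM in Ebf1-KO and no count in Pax5-KO, at least 45.7-fold higher (adjusted p = 0.037, and 0.051 to 0.28 without any 1 library). None of 16 BCL2 family genes was called in edgeR, with 1 higher and 3 lower at an unadjusted p under 0.05 and 1 lower by DESeq2. Bcl2, the survival gene, had 382 and 467 CPM in Ebf1-KO and 339 and 268 CPM in Pax5-KO (adjusted p = 0.27). Among 17 immediate early and stress genes, Jun (6.09 and 4.35 CPM in Ebf1-KO, 37.3 and 39.8 CPM in Pax5-KO, adjusted p = 0.0003) and Jund (48.5 and 47.8 CPM in Ebf1-KO, 69.1 and 153 CPM in Pax5-KO, adjusted p = 0.034) were lower. Jund lost its call without Ebf1-KO replicate 1 (0.24), Ebf1-KO replicate 2 (0.19) or Pax5-KO replicate 2 (0.81).

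**Figure D4:**
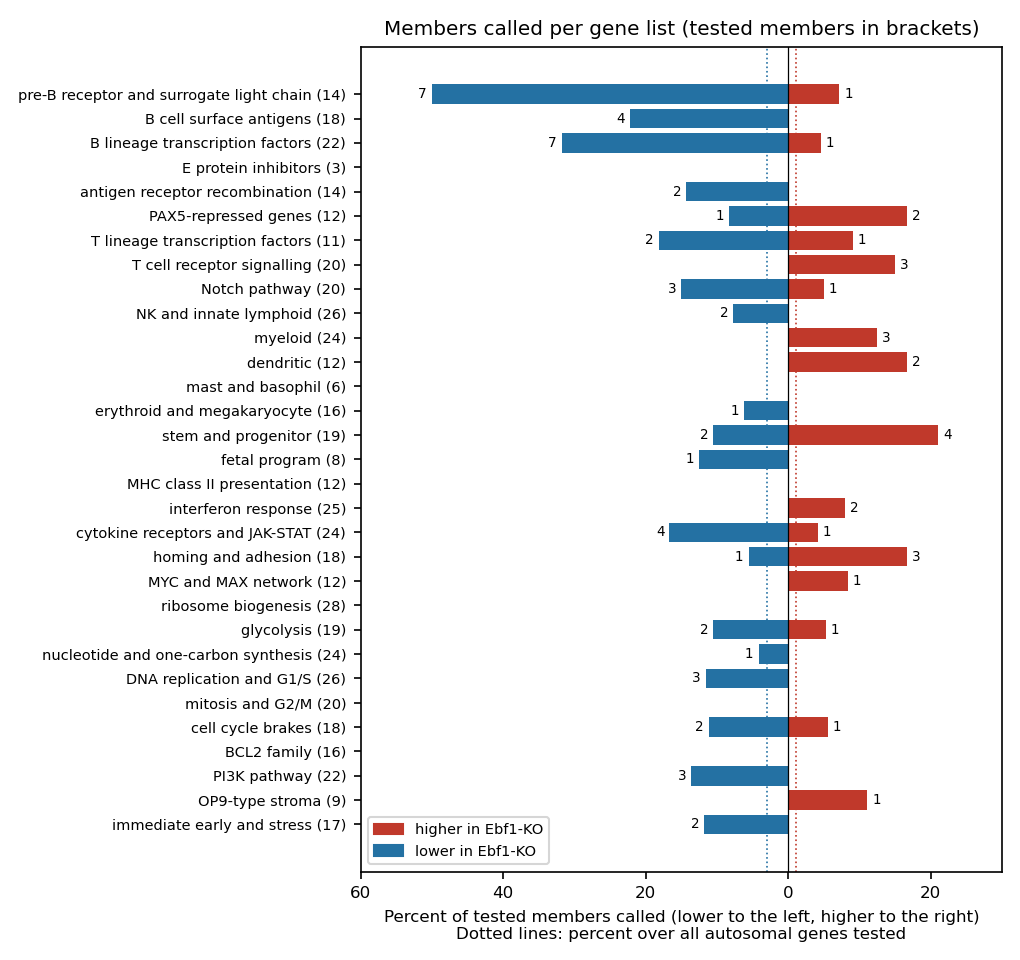
Percent of the tested members of each gene list that were higher (bars to the right) or lower (bars to the left) in Ebf1-KO than in Pax5-KO at an adjusted p under 0.05, with their number at the end of each bar and dotted lines at 1.14% and 2.93%, the shares over all autosomal genes. The pre-B receptor list and the B lineage transcription factors have the most lower members, 7 each, and the stem and progenitor list the most higher members, 4.

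The largest differences included genes that no list held. Chrna4, which encodes a subunit of the nicotinic acetylcholine receptor (NM_015730, chromosome 2, 181022311 to 181039177), had no count in Ebf1-KO, 207 and 209.9 CPM in Pax5-KO and 0.0518 and 0.0572 CPM in wild type, and was at least 3534-fold lower in Ebf1-KO (adjusted p = 1.9e-06). Clgn, which encodes the chaperone calmegin, had 0 and 0.104 CPM in Ebf1-KO, 129 and 94.3 CPM in Pax5-KO and 161 and 139 CPM in wild type (adjusted p = 5.9e-09). Chrna4 was thus high in Pax5-KO and near 0 in wild type, whereas Clgn was expressed in both. Cplx2, which encodes a complexin of vesicle release, had no count in Ebf1-KO, 6.87 and 8.13 CPM in Pax5-KO and 586 and 557 CPM in wild type (at least 127-fold lower, adjusted p = 3.9e-07). The remaining lower genes of this kind were Col5a2 (at least 579-fold), Crisp1 (449.9), Scn4b (372), Dlx1 (329.7), Col26a1 (141) and Hspb8 (112), each with no count in Ebf1-KO, and Tmed6. Hspb8 lost its call without Ebf1-KO replicate 1 (0.053) or Ebf1-KO replicate 2 (0.059), and Dlx1as overlaps Dlx1.

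Among the higher genes, Ednra, an endothelin receptor gene (NM_010332, chromosome 8, 77663029 to 77724452), had 8.56 and 20.5 CPM in Ebf1-KO and no count in Pax5-KO or wild type, at least 268-fold higher (adjusted p = 0.0032). Sox6, a transcription factor gene of red cell and cartilage development, had 26.6 and 31.4 CPM in Ebf1-KO, 0.332 and 0 CPM in Pax5-KO and 0 and 0.114 CPM in wild type (log2 fold change 7.58 ± 1.39, adjusted p = 0.0047). Marco, a macrophage scavenger receptor gene, had 9.43 and 5.73 CPM in Ebf1-KO and no count in Pax5-KO, at least 139.7-fold higher (adjusted p = 0.0028). These 3 were called in every fit that left out 1 library. Hnf4a, a nuclear receptor gene of liver, had 9.88 and 16.5 CPM in Ebf1-KO and no count in Pax5-KO, at least 243-fold higher (adjusted p = 0.0068), and its adjusted p was 0.052 without Pax5-KO replicate 1 and 0.086 without Pax5-KO replicate 2, with Hnf4aos overlapping it. Gli2, a factor of Hedgehog signalling, had 5.72 and 12.1 CPM in Ebf1-KO and 0.0948 and 0 CPM in Pax5-KO (adjusted p = 0.010, 0.065 without Ebf1-KO replicate 2 and 0.12 without Pax5-KO replicate 2). Esm1, Lilra6 and Enho lost their calls without any 1 of the 4 libraries, Mrgpra9 without any but Pax5-KO replicate 1, and Wfdc17 without any but Ebf1-KO replicate 2, with adjusted p values up to 0.33 among these 5. Bahcc1, which encodes a chromatin reader, and Ptafr, the receptor for platelet-activating factor, were described after their values were seen. Bahcc1 had 764 and 886 CPM in Ebf1-KO and 194 and 143 CPM in Pax5-KO (adjusted p = 3.6e-05), and Ptafr had 115 and 162 CPM in Ebf1-KO and 17.0 and 11.5 CPM in Pax5-KO (adjusted p = 1.1e-05).

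EBF1 binding was described with 17230 peaks of the pre-B line, called by the authors as 1 list from 2 immunoprecipitated samples. These are not the cells compared here. A peak lay within 1000 bases of the start site of 155 of the 413 genes lower in Ebf1-KO (37.5%, exact 95% binomial interval 32.8 to 42.4), of 23 of the 161 higher genes (14.3%, 9.28 to 20.7) and of 3756 of the 13504 genes not called (27.8%). The genes also differed in level, since the median was 44.5 CPM among the lower, 33.3 CPM among the higher and 17.3 CPM among the genes not called, and the part of level in these shares was not tested. Intervals cover counting error only, as genes are not independent of each other. Read from the peaks, 3.94% of the 3934 genes with a peak were lower in Ebf1-KO and 0.585% higher, against 2.54% and 1.36% of the 10144 genes without one. The lower genes described above that had a peak within that distance included Igll1, Vpreb2, Cd79a, Cd79b, Cd24a, Tnfrsf13c, Pou2af1, Notch1, Tcf7, Cish, Cxcr5, Uhrf1, Impdh1 and Ccnd3. The peak at Igll1 had a score of 330 and a fold over input of 123 in the authors' list, that at Cd79a 134 and 46.7, that at Slc16a1 40 and 5.77 and that at Ccnd3 34 and 4.74, where the median score was 41. Higher genes with such a peak included Tyrobp, Itgam, Runx2, Oas2, Itga6, Itga4 and Pfkp.

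**Figure D5:**
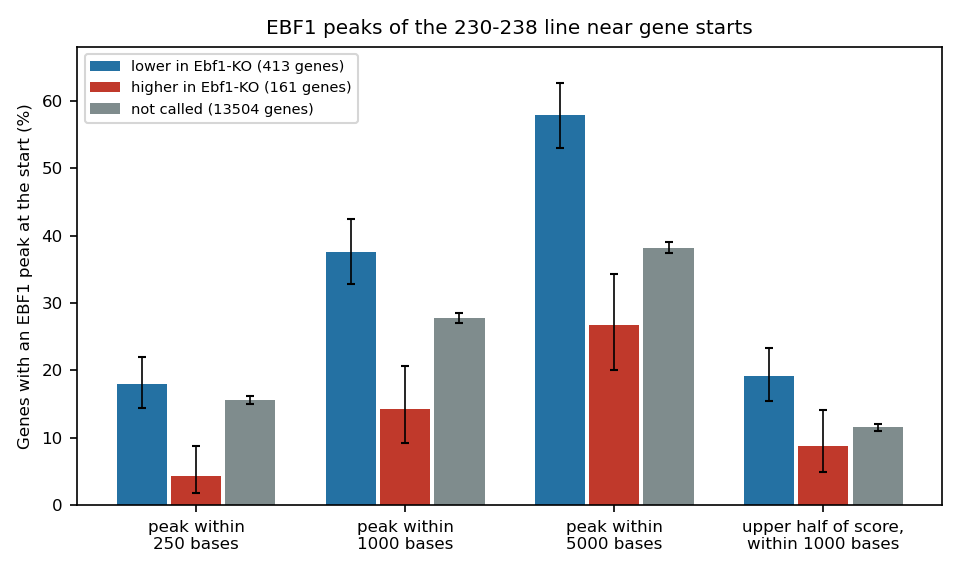
Percent of genes lower in Ebf1-KO, higher in Ebf1-KO and not called that have an EBF1 peak of the pre-B line near their start site, with exact 95% binomial intervals as bars. Within 1000 bases the shares are 37.5%, 14.3% and 27.8%.

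The letters CCCNNGGG were found in the promoter windows of 23.9% of 289 lower genes with a matched promoter, 20.0% of 115 higher genes and 17.9% of 9903 genes not called, and in 13.7% of all 32851 promoters of that length in the table. Among genes with a peak, the shares were 31.5% of 108 lower genes, 4 of 13 higher genes and 23.9% of 2931 genes not called. A total of 10307 tested genes had a promoter whose start site lay within 500 bases of that in the count table.

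Some facts of these 4 libraries move with the comparison. Xist, the RNA of the inactive X chromosome, had 1.24 and 1.52 CPM in Ebf1-KO, 4649.8 and 2679 CPM in Pax5-KO and 0.466 and 29.6 CPM in wild type. The Y-linked gene Ddx3y had 76.4 and 74.1 CPM in Ebf1-KO, no count in Pax5-KO and 57.5 and 51.9 CPM in wild type. Pax5-KO alone thus stood apart in these genes, so that sex and genotype cannot be told apart for Pax5-KO against either other group. Only autosomal genes were counted above, which does not remove any effect of sex on those genes. On the sex chromosomes, 22 of 467 tested genes were called (4.71%). Of 18 genes of stroma like OP9, 9 had enough counts to be tested and 1 was called, Pdgfrb, with 58.1 and 63.3 CPM in Ebf1-KO and 6.21 and 9.30 CPM in Pax5-KO (adjusted p = 0.014, and 0.059 to 0.14 without any 1 library). The defining stromal genes Col3a1, Lum, Dcn and Postn had no count in any of the 4 libraries. The stroma list summed to 85.2 and 84.9 CPM in Ebf1-KO, 40.5 and 33.6 CPM in Pax5-KO and 46.0 and 93.9 CPM in wild type. Pdgfrb alone supplied most of the Ebf1-KO sums, so their excess over Pax5-KO does not speak for the list as a whole.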

How the data were processed

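RNA was read in 14 libraries of 7 groups of 2. The deposited table holds whole-number exon counts per gene, made by the authors on mm10, with STAR 2.6.0b-1 and HOMER 4.8 among the tools named per the submitters' processing notes; no strand setting is given in the sources used here. All count columns were matched to samples by their headers, and the unnumbered Pax5-KO column was taken as replicate 1. edgeR 4.0.16 (R 4.3.3) was used with TMM scaling, its filter on low counts, 1 quasi-likelihood fit over all 14 libraries and the contrast of Ebf1-KO over Pax5-KO, both with empty vector; p-values were adjusted by the Benjamini-Hochberg method over all 14550 tested genes, and autosomal genes were counted. A gene counted as called at an adjusted p under 0.05. The SE is the log2 fold change over the square root of F. Where a group had no count, folds used a floor of 3 counts over that group; with 1 to 3 counts, the ratio has a 95% counting interval. The same code was tested on simulated counts. It called 58 of 100 genes with a simulated log2 change of 2, 7 of 100 with a change of 1, and 4 unchanged genes. A gene that was not called may therefore still differ.

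The EBF1 peak list, made by the authors with HOMER per the file headers, gives each peak a signal in normalized tags, a score and a fold over input as deposited. Peaks were assigned by distance to start sites. The members and gene lists were chosen with earlier results of these data known. Named genes are Ebf1, Pax5 and Myc; the 12 largest called differences in each direction with at least 5 CPM in both libraries of the higher group; up to 4 called members of each list by adjusted p; and the 6 called transcription factors with the smallest adjusted p. Genes without a name were skipped, and genes beyond the rule are marked as such.

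Alternatives were RLE scaling, library totals, other filters, smaller fits, DESeq2 1.42.0, a replicate block, leaving out each library, and other peak distances and scores. Same-numbered libraries of Ebf1-KO and Pax5-KO share a run tag whose meaning the headers do not give, and their deviations correlated at 0.22.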

Additional observations from a re-analysis of the deposited data

How the results depend on the processing

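Against 161 genes higher and 413 lower in Ebf1-KO, the counts were 307 and 635 without the filter on low counts, 454 and 663 with the 4 knockout libraries alone, 270 and 544 with the 6 empty-vector libraries and 333 and 624 in DESeq2. Leaving out each library in turn gave 61 to 90 higher and 208 to 328 lower genes. With a replicate block there were 205 higher and 506 lower genes, which kept all 161 and all 413. Scaling by library totals gave 166 higher and 338 lower genes, and the median log2 fold change over all genes was 0.078, against 0.0076 with TMM factors. Of 88 named genes, library totals ended the call of 8 (Notch1, Runx3, Csf2rb2, Itga4, Pfkfb3, Ccnd3, Inpp5d and Jund); Runx3 also lost it with the 4 knockout libraries alone, and Oas1a without the filter and with autosomal genes only. The Ebf1 log2 fold change, which was called under none of these settings, turned to 0.0033 with library totals, to 0.0278 without Ebf1-KO replicate 1 and to 0.12 without Pax5-KO replicate 1, and spanned -0.27 to 0.12 over the fits without 1 library. With an EBF1 peak counted within 5000 bases the share was 57.9% of lower genes, 26.7% of higher genes and 38.2% of genes not called. It was 17.9%, 4.35% and 15.6% in the same order within 250 bases, where the interval of the lower genes (14.3 to 22.0) held the share of genes not called, and 19.1%, 8.70% and 11.5% with the upper part of the scores. The cause of these changes was not tested.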
